A study of Rattus norvegicus with 4 samples.

Results

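Odorant receptors are the proteins with which the nose detects odours, and this account follows their genes in cultured olfactory ensheathing cells, glia that enclose sensory axons between nose and brain. Members were the non-control probes whose gene name on the array is Olr followed by a number, once the endings for predicted and mapped genes were removed. They came to 1111 probes of 1106 gene names, among 41012 non-control probes of 35658 names in all. Messenger RNA of ensheathing cells from the olfactory mucosa of male Fischer rats was labelled with Cy5, and that of ensheathing cells from the olfactory bulb with Cy3, after amplification by PCR. Each of 4 arrays held 1 biological replicate as a pair, and both cell types were cultivated by the same protocol. The dyes had the same orientation on all arrays, so dye and tissue cannot be told apart. Ages, and whether animals were pooled, are not given in the sources used here.

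In the nose, each mature sensory neuron transcribes essentially a single odorant receptor gene, from a single allele. The receptor couples through the G protein Golf to adenylyl cyclase type III, and the cyclic AMP that this enzyme makes opens a cation channel in the cilia. The receptors form the largest gene family of mammals, lie in clusters on many chromosomes, and have their coding sequence in a single exon. Class I receptors resemble those of fish, and class II receptors are the larger, later group.

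Of the 1111 members, 1092 matched a current RefSeq gene through the accession of the probe. Class I, taken as families 51, 52, 55 and 56 of the current name, was the smaller group, class II held 926, and 71 carried no family number. On the rn4 build, chromosome 3 held 279 members, chromosome 1 held 269 and chromosome 8 held 147. In the files' accession lists, 121 probes were paired with transcripts of more than 1 current gene. Every member was a probe of 60 bases in 1 spot, and 98 members shared a run of 20 or more bases with another member, against 1 that shared such a run with a probe of another gene. A signal can therefore come from more than 1 receptor transcript.

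The probes on which the results turn are shown with the longest run that each shares with another probe. Such runs compare probes of the array and not transcripts, so short runs do not show that a probe is specific. The first 8 were the largest differences that passed the test, and the last 4 were detected in mucosa cells and not, or on 1 array, in bulb cells. Each is written 5′ to 3′ as the array files give it. Capitals mark the longest run shared, on either strand, with any other probe of the array.
Olr56: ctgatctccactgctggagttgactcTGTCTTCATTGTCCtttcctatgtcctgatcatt
Olr68: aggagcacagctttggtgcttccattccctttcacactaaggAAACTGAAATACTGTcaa
Olr707: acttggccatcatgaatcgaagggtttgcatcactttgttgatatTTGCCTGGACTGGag
Olr1086: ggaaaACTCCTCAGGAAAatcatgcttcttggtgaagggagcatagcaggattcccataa
Olr165: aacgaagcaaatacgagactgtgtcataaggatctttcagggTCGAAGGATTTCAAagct
Olr41: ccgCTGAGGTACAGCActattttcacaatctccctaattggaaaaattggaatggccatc
Olr578: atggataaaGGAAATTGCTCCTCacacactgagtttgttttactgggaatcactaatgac
Olr602: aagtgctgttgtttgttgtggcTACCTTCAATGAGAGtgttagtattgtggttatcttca
Olr496: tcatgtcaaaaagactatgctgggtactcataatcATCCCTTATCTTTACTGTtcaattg
Olr1561: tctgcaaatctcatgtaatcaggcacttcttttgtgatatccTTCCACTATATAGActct
Olr1386: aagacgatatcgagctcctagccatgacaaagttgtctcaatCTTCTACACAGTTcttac
Olr1279: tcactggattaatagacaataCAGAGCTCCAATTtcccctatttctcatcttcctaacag
The shared runs were 13 to 18 bases long, and the longest, in Olr496, was shared with Olr499. Among the 12 probes, the longest shared run lay in another odorant receptor probe only for Olr496 and Olr578 (with Olr613, 14 bases), and for the other 10 in a probe of another gene or transcript, for Olr1279 at a length that Olr613 also reached.

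On rn4, the Olr56 probe lies at chr1:160573672-160573731 on the minus strand and the Olr68 probe at chr1:160746789-160746848 on the plus strand. Olr41 lies at chr1:160146271-160146330 (plus) and Olr165 at chr1:162420225-162420284 (minus). Olr578 lies at chr3:71372432-71372491 (minus), Olr602 at chr3:71732200-71732259 (minus) and Olr707 at chr3:74017005-74017064 (minus). Olr1086 lies at chr7:12363022-12363081 (plus). Olr496 lies at chr3:69540653-69540712 (minus), Olr1561 at chr11:42453172-42453231 (plus), Olr1386 at chr10:34304710-34304769 (plus) and Olr1279 at chr8:41310221-41310280 (minus). These are the positions the array files give, and no exon annotation of that build was used here.

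Odorant receptor probes gave a signal in both cultures, and on every array and channel the share of members above background was lower than that of all other probes. The array software marked a probe as well above background from its signal and the local background. In mucosa cells it did so for 65.8%, 68.2%, 57.8% and 64.1% of the members on arrays 1 to 4, a mean of 64.0% ± 4.46 (SD, n = 4). In bulb cells the shares were 63.5%, 59.8%, 55.6% and 55.4%, a mean of 58.6% ± 3.84. The mucosa share was higher than the bulb share on each array, by 2.16 to 8.73 percentage points, and the ranges of the channels overlapped. On array 1 the order turned when detection was set by the negative control spots, with 81.5% in mucosa and 84.5% in bulb cells above their 95th percentile, and 74.4% and 76.8% above their 99th. All other probes were well above background at 88.0% ± 3.72 in mucosa cells and 89.7% ± 0.408 in bulb cells, where the difference between channels ran from -5.81 to 1.88 points. Of 153 negative control spots, all of 1 sequence, 0 to 1.31% were marked in mucosa cells and 0 to 1.96% in bulb cells.

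**Figure D1:**
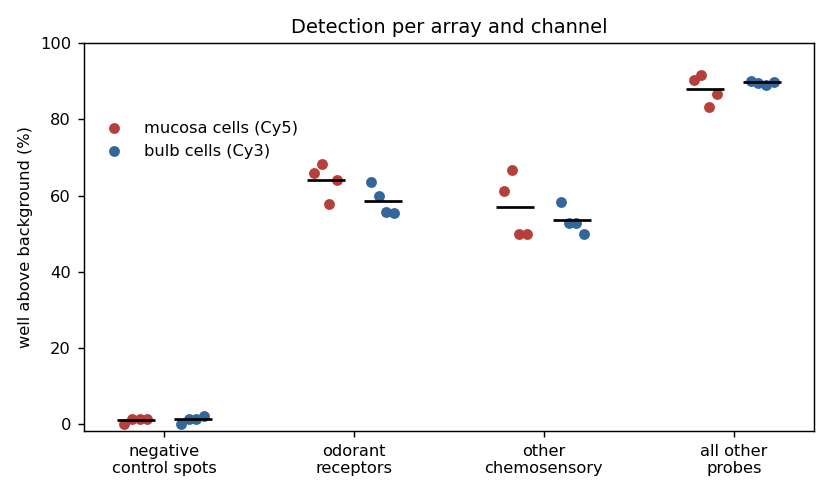
Share of probes (or of negative control spots) well above background, in percent, for each of 4 arrays in the mucosa (red, Cy5) and the bulb channel (blue, Cy3), with black lines for the means. Odorant receptor probes lie between the negative control spots and all other probes, at means of 64.0% in mucosa and 58.6% in bulb cells.

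By array, 530 members were well above background on all 4 arrays in both channels, and 230 on none in either. More mucosa than bulb arrays were marked for 218 members, and more bulb than mucosa arrays for 70, which is 19.6% and 6.30% of members. Among all other probes the order was the opposite, with 4.94% and 10%. Detection on all 4 mucosa arrays with 0 or 1 bulb array was found for 13 members, and the reverse pattern for 0, which is 1.17% and 0% of members against 0.356% and 0.644% of all other probes. These shares concern signal at a probe, not the share of cells that transcribe a receptor.

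Detection followed the base composition of the probe. Members had a median GC content of 40%, from 35% to 55%, against 43.3% for all other probes. Of the 487 members with a GC content from 35 to under 40%, 37.8% passed the detection filter of the test, which asked for at least 3 arrays in at least 1 channel. The share was 69.2% of 364 members from 40 to under 45%, 95.7% of 211 from 45 to under 50%, and all of the 49 at 50% or more. Other probes passed at 83.1%, 89.8%, 96.5% and 99.5% in the same classes. The gap between members and other probes was therefore wide at low GC content and small at high GC content. The part of base composition in the detection of single receptors was not tested.

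**Figure D2:**
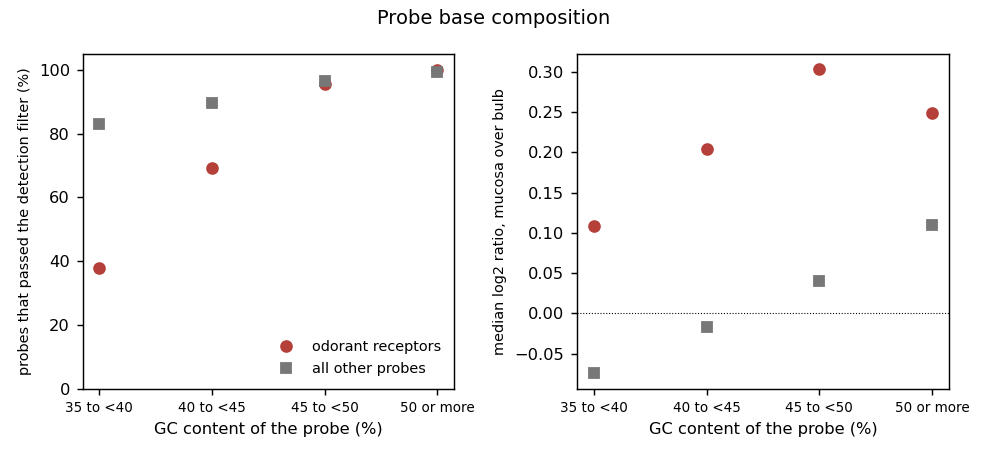
Share of probes that passed the detection filter (left, percent) and median log2 ratio of mucosa over bulb (right), by GC content of the probe, for odorant receptors (red circles) and all other probes (grey squares). Passing members rise from 37.8% to 100% over the 4 classes, and the members' median ratio is above that of other probes in each class.

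The test asked which receptor probes differed between mucosa and bulb cells. It used limma on the log2 ratios of the 4 arrays, with Benjamini-Hochberg adjustment over all tested probes and a threshold of 0.05. Of 687 members that passed the filter, 13 were higher in mucosa cells and 0 were lower. The filter was passed in both channels by 597 of the 687, in mucosa cells only by 78 and in bulb cells only by 12. Among the 13 called members, 11 had passed it in both channels. The exceptions were Olr165 and Olr707, which passed it in mucosa cells only, where they were higher. Their calls are therefore not independent of the filter. Over all 36746 tested probes, 3.13% were higher and 3.42% lower, so the members' share of 1.89% higher was below the background and their share of 0% lower was further below it. At an unadjusted p under 0.05, 94 members (13.7%) were higher and 4 (0.582%) lower in limma, the only tool run, against 10.8% and 13% of all tested probes. After adjustment, 1150 of all tested probes were higher and 1255 lower, and with median centring in place of loess 1625 and 1152.

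The members as a whole lay slightly to the mucosa side. The median log2 ratio over all members was 0.02, 0.08, 0.24 and 0.31 on arrays 1 to 4, a mean of 0.16 ± 0.13 (SD, n = 4), against 0.01 ± 0.01 for all other probes. Arrays 1 and 2 were low and arrays 3 and 4 high. With median centring in place of loess the mean was -0.17, so the sign of this median over all members depends on the normalization. Over the tested members alone it did not turn with median centring, at a mean of 0.13 against 0.09 for all other tested probes. Of the tested members, 580 had a mean ratio above 0 and 107 below, or 84.4% above 0, against 49.1% for all other tested probes. The tested members include 78 that passed the filter in mucosa cells only and 12 in bulb cells only. The part of this filter in the excess above 0 was not tested. Ratios reached 2-fold in 16 members upward and 1 downward, which is 2.33% and 0.146%, where the other tested probes had 5.38% and 8.03%. The members thus showed a narrow, one-sided spread rather than many large differences.

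**Figure D3:**
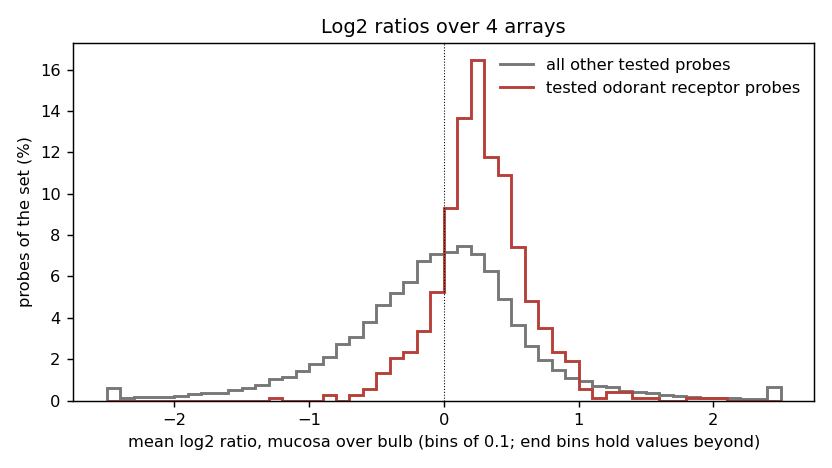
Distribution of mean log2 ratios of mucosa over bulb in bins of 0.1, as percent of each set, for tested odorant receptor probes (red) and all other tested probes (grey). The members have a median of 0.27 with 84.4% above 0, and the other probes a median of -0.01 with longer tails to both sides.

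The members' shift to the mucosa side was not limited to the dimmest spots. When all probes were ordered by mean intensity into 10 equal groups, the members' median ratio ran from 0.08 to 0.35 in the 8 groups that held at least 20 members, and that of other probes from -0.07 to 0.09 over all 10. By GC content the members' medians were 0.11, 0.20, 0.30 and 0.25 from the lowest to the highest class, and those of other probes -0.07, -0.02, 0.04 and 0.11. The ratios of all 4 arrays were above 0 for 37.2% of tested members and below 0 for 1.75%, against 16.9% and 16.4% of other probes. These shares also include members that passed the filter in mucosa cells only. The correlation of ratios across tested members lay between 0.09 and 0.47 for pairs of arrays, and between 0.35 and 0.54 across other probes. These correlations describe probes that share an array and a slide, and probes are not replicates.

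Olr56 (Or51f23c in RefSeq, class I) had the largest difference. Its mucosa signal was 1692, 1599, 1537 and 1342 on arrays 1 to 4 and its bulb signal 151, 145, 179 and 175.5, before background correction and normalization. All mucosa values lay above all bulb values, which says little before normalization: the same held for 51.4% of all tested probes and 90.5% of tested members, and Cy5 signals were higher in general, with a median over all probes of 568 to 841 against 343 to 383 in Cy3. The normalized log2 ratios were 2.07, 1.98, 2.18 and 2.02, a mean of 2.06 ± 0.09 (SD, n = 4) or 4.18-fold, with an adjusted p of 0.00455 in limma.

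Olr68 (Or51a7b, class I) was 3.8-fold higher. Its mucosa signals were 1669.6, 1478, 849 and 930.2, and its bulb signals were 124, 147, 145 and 141. The log2 ratios were 2.35, 1.81, 1.71 and 1.83, with a mean of 1.93 ± 0.29 and an adjusted p of 0.00708 in limma. Its accession list holds transcripts of 2 current genes, the only case among the 13. Olr56 and Olr68 were also the only members called whichever array was left out, with adjusted p between 0.0186 and 0.0419.

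The Olr56 and Olr68 probes lie within 173 kb of each other, and 5 other odorant receptor probes lie between them. Of these, 3 passed the filter and 0 were called, with log2 ratios from 0.10 to 0.49. The nearest members on the outer sides, Olr53 and Olr69, had ratios of 0.27 ± 0.39 and 0.24 ± 0.43. In this stretch the large ratios were those of the outer probes and not of the ones between them. Class I supplied 4 of the 13 called probes from 77 tested (5.19%), and class II 9 from 566 (1.59%), against 3.13% of all tested probes called higher. Whether the classes differ was not tested, and the class I share rests on 4 probes.

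The other class I receptors among the called probes were Olr165 and Olr41. Olr165 (Or52n4e) had mucosa signals of 208, 329.5, 257 and 249 and was well above background on all 4 mucosa arrays and on no bulb array, where the signal was 21 to 35. It was at least 2.72-fold higher in mucosa cells, which sets its mean mucosa signal against the higher of the bulb signal and the lowest detected signal of each array. Its log2 ratios were 1.23, 1.31, 1.6 and 1.67 (adjusted p = 0.0145, limma). Olr165 entered the test through the mucosa channel only, so this p-value is not independent of the filter. Olr41 (Or52b4) had ratios of 0.89, 1.34, 1.74 and 1.55, a mean of 1.38 ± 0.37 with an adjusted p of 0.0226 in limma.

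Olr578 (Or5w12) and Olr602 (Or5l14b) are class II receptors. Olr578 had log2 ratios of 1.35, 1.19, 1.25 and 1.68, a mean of 1.37 ± 0.22 (adjusted p = 0.0174, limma). Olr602 had ratios of 1.28, 1.11, 1.51 and 1.36, a mean of 1.31 ± 0.17 (adjusted p = 0.0180, limma). Mucosa signals of Olr602 ran from 3328 to 3849 and bulb signals from 634 to 757. Both lie on chromosome 3, and the nearest members beside each of them were not called or not tested.

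Olr707 (Or4a72) and Olr1086 (Or7c70) varied more between arrays. Olr707 had log2 ratios of 0.60, 2.66, 2.24 and 1.80, with array 1 low, and a mean of 1.82 ± 0.89 (adjusted p = 0.0381, limma). It was well above background on 4 mucosa and 2 bulb arrays, so it too entered the test through the mucosa channel only. Olr1086 had ratios of 0.77, 1.14, 2.18 and 2.16, with arrays 1 and 2 low, and a mean of 1.56 ± 0.72 (adjusted p = 0.0393, limma). The other 5 called probes were of Olr1516, Olr1657, Olr1343, Olr1486 and Olr1353, all of class II, with mean ratios from 0.96 to 1.27 and adjusted p from 0.0220 to 0.0450 in limma.

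**Figure D4:**
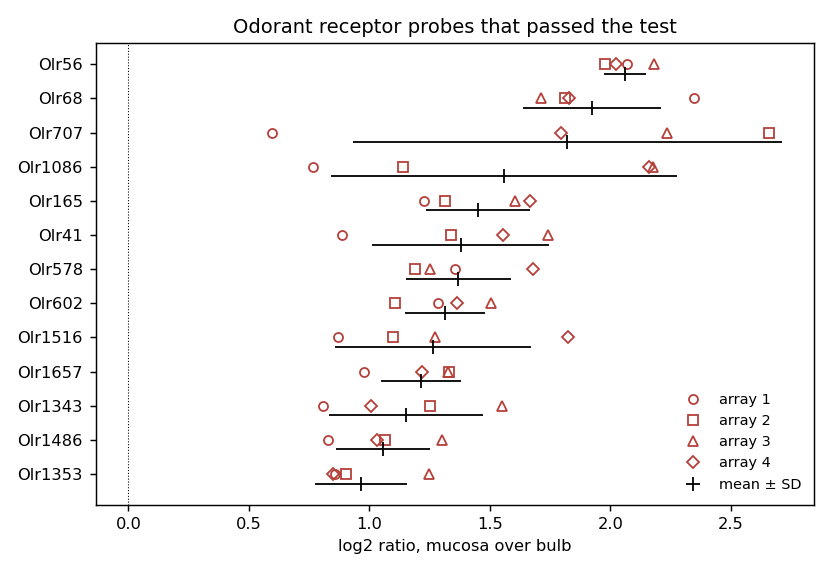
Log2 ratios of mucosa over bulb on each of 4 arrays (open symbols), with mean and SD (black), for the 13 odorant receptor probes that passed the test. All values are above 0, and Olr56 shows the narrowest spread, from 1.98 to 2.18.

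Most of these calls needed all 4 arrays. Without array 1, 3 members were called, without array 2 there were 2, without array 3 there were 4, and without array 4 there were 2, and all of them were among the 13. Over all probes, the share called higher also fell, from 3.13% to 1.03%, 0.976%, 1.78% and 1.56% without arrays 1 to 4 in turn. With a trended and robust variance 6 of the 13 were called, and 1.77% of all tested probes were higher. With the channels treated as separate samples, without the pairing, 38 members were higher and 2 lower. All tested probes were then higher at 5.29% and lower at 5.55%.

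Signal on all 4 mucosa arrays and on at most 1 bulb array was found for Olr496 (Or8k24), Olr1561 (Or5k8), Olr1386 (Or2v1) and Olr1279 (Or8g24) among the largest ratios, besides Olr165. None of these 4 passed the test. Olr496 had log2 ratios of 0.69, 0.50, 0.74 and 2.02, with array 4 far above the others, and Olr1561 had 0.45, 1.70, 0.82 and 0.28, with array 2 high. Olr1386 had 0.36, 0.34, 0.91 and 0.74, and Olr1279 had 0.39, 0.38, 0.62 and 0.61. Their adjusted p ran from 0.121 to 0.193 in limma. For the probes never above background in bulb cells, the bound was at least 1.98-fold for Olr496 and at least 1.40-fold for Olr1279.

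A gene name with more than 1 probe occurred 5 times, and the probes often differed in detection. For Olr196 (Or52l1), the probe detected on all arrays had log2 ratios of 2.35, 1.05, 0.50 and 0.41, a mean of 1.08 ± 0.90 (adjusted p = 0.143, limma). Its other probe was well above background on 1 mucosa and 0 bulb arrays and had a mean of -0.11 ± 0.14. For Olr367 (Or5b123), 1 probe was detected on all arrays with a mean of 0.07 ± 0.41 and the other on none. For Olr1029 neither probe was detected on more than 1 array. For Olr1730 the means were 0.45 ± 0.82 and 0.43 ± 0.13, where the accession of the former is now Olr1869 in RefSeq. That former probe had ratios of 0.84, 1.39, -0.42 and 0.01, was detected on 2 mucosa and 1 bulb arrays, and was not tested. The latter was detected on all arrays. The signal at a single probe was therefore no guide to the other probe of the same name for Olr196 and Olr367.

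Genes listed for sensory neurons and odour transduction gave no call on the mucosa side. Over all tested probes 3.13% were called higher, and a list this short cannot set 0 calls apart from that share. The list includes transduction genes with high signal in both cultures, such as Gnb1, so it does not measure sensory neurons alone. The Gnb1 signal was 15354 to 21434 in mucosa and 8471 to 9733 in bulb cells. Of 23 genes fixed for mature sensory neurons and odour transduction, 20 were matched on the array and 19 passed the filter. Of these, 0 were higher and 1 was lower in mucosa cells in limma. At an unadjusted p under 0.05 in limma, 3 were higher and 2 lower, where the shares over all tested probes were 10.8% and 13%. The list's median ratio was 0.25, while that of all other tested probes was -0.01. Omp, the olfactory marker protein of mature sensory neurons, had ratios of -0.49, 0.23, -0.18 and 0.80 at its brighter probe, a mean of 0.09 ± 0.56 (adjusted p = 0.860, limma), and its other probe had a mean of -0.37. Cnga2, the main subunit of the olfactory channel, was not well above background in either channel of any array.

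The signalling genes after the receptor gave values on both sides of 0. Gnal, the alpha subunit of Golf, had a mean log2 ratio of 0.22 ± 0.18, and its probes ran from -0.51 to 0.47. Adcy3, adenylyl cyclase type III, had ratios of 2.74, 1.83, -1.47 and 1.00, a mean of 1.02 ± 1.81 (adjusted p = 0.388, limma), with array 3 against the others. The channel subunits Cnga4 and Cngb1 had means of 0.25 ± 0.26 and 0.70 ± 0.50. Pde1c, a calmodulin-regulated phosphodiesterase that degrades cyclic AMP, fell, with ratios of -1.68, -2.61, -2.54 and -1.26 and a mean of -2.02 ± 0.66 (adjusted p = 0.0165, limma). It was not called without array 1 or without array 2.

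Genes that carry receptors to the cell surface also did not pass the test. Rtp1 and Rtp2, which help odorant receptors reach the membrane, had mean log2 ratios of 0.24 ± 0.24 and 0.44 ± 0.27. Stoml3, a stomatin-like protein of sensory neurons, had ratios of 0.12, 2.20, 0.98 and 0.88, a mean of 1.05 ± 0.86 (adjusted p = 0.142, limma). Gng13, Ano2 and Emx2 were not matched to a probe by name.

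**Figure D5:**
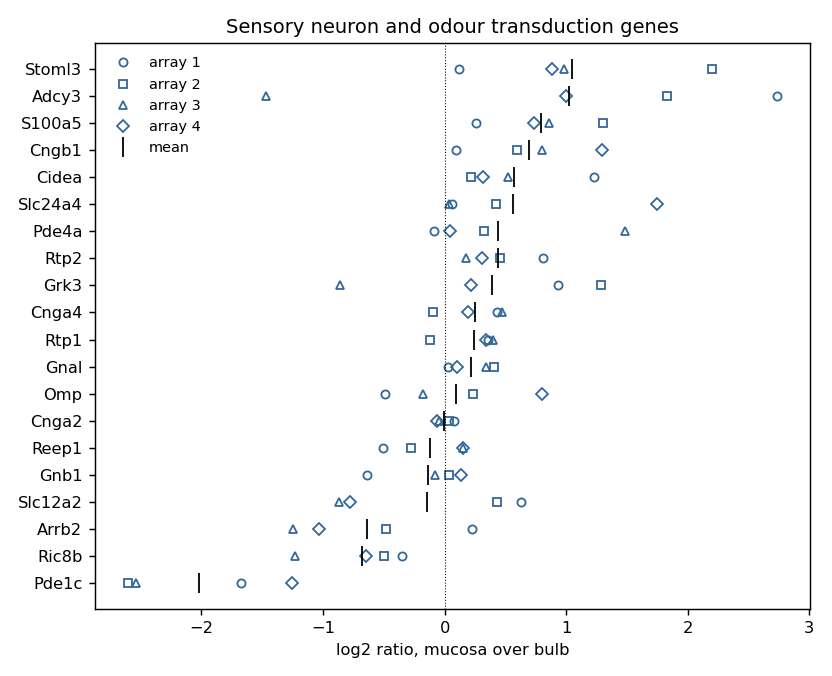
Log2 ratios of mucosa over bulb on each of 4 arrays (open symbols) and their mean (black) for the 20 genes of mature sensory neurons and odour transduction matched on the array, by the brightest tested probe. Only Pde1c passed the test, on the bulb side, and Omp lies at a mean of 0.09.

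Genes of earlier stages also gave no call on the mucosa side. Their lists are likewise too short to set 0 calls apart from the 3.13% of all tested probes. Of 12 tested genes of immature neurons and growing axons, 0 were higher and 3 lower in limma (1 and 4 at an unadjusted p under 0.05), among them Crmp1 (-2.36 ± 0.65, adjusted p = 0.00964, limma) and Map1b (-1.52 ± 0.32, adjusted p = 0.0157, limma), both of axon growth. Crmp1 was not called without array 1, and Map1b was not called without array 1, 2 or 4 or with a trended and robust variance. Gap43, a protein of growing axons, had a mean of 0.21 ± 0.18 and did not pass. Of 6 tested genes of neuron progenitors 0 passed in limma in either direction (0 higher and 1 lower at an unadjusted p under 0.05). Neurog1, a transcription factor of these progenitors, was not well above background on any array. Among 8 tested genes of receptor choice, Cbx5, a heterochromatin protein, was called lower (-0.97 ± 0.09, adjusted p = 0.0388, limma). That call was lost without any 1 of the arrays (adjusted p from 0.0943 to 0.157, limma) and in 5 of the 10 other settings. Lhx2, a homeodomain factor needed for receptor expression, had a mean of -0.73 ± 0.41 that did not pass. Of 14 pan-neuronal genes, the neurofilaments Nefm (-3.06 ± 0.69, adjusted p = 0.00499, limma), Nefl (-2.78 ± 0.24, adjusted p = 0.00267, limma) and Nefh were lower in mucosa cells and 0 were higher, with 2 higher and 3 lower at an unadjusted p under 0.05.

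Markers of other cells moved between the cultures too, and fewer cells of a type and less RNA per cell cannot be told apart in bulk RNA. Of 15 ensheathing and Schwann glia genes, 7 were lower and 1 was higher in mucosa cells, among them S100b (-1.49 ± 0.13), Sox10 (-1.87 ± 0.55) and Ngfr (-1.27 ± 0.23), the p75 receptor by which these cells are known. S100b was not called without array 1 or 2, Sox10 without array 1, 2 or 4, and Ngfr without any 1 of the arrays. With a trended and robust variance S100b and Ngfr were not called, nor was Ngfr with median centring. The summed normalized signal of the 15 genes was 41358 to 69149 in mucosa and 78474 to 105875 in bulb cells. Of 10 fibroblast genes, 4 were higher and 2 lower, with sums of 307265 to 353787 and 122515 to 182281. The higher genes were Col1a1, Col1a2, Thy1 and Postn, and the lower ones Fbln1 (-4.15 ± 0.62) and Dcn (-2.01 ± 0.95). Col1a1 alone had a mucosa signal of 206952 to 264335 before normalization, so the sums weigh a few bright genes most. All markers of both lists were above background. Of the sustentacular and gland genes, Krt8 was higher (2.64 ± 0.28) and Cdh1 lower (-2.40 ± 0.37). Of 7 tested macrophage genes, Lyz2, a lysozyme, was higher (2.87 ± 1.73, adjusted p = 0.0496, limma), with ratios of 4.5, 4.15, 0.98 and 1.83, and 0 were lower. It was not called without array 1, 2 or 4 or in 5 of the 10 other settings. The medians of the macrophage list were 1.51, 0.52, -1.28 and -0.53 on arrays 1 to 4, high on the arrays where the odorant receptor median was low. This was not particular to macrophages, since the fibroblast medians were 1.47, 1.57, 0.43 and 0.69. The medians of the glia list stayed level, at -1.10, -1.23, -1.14 and -1.17. Of 10 tested bulb neuron genes 0 passed in limma (2 higher and 0 lower at an unadjusted p under 0.05), and of 8 basal cell genes 0 passed (0 and 0). The part of these cell types in the odorant receptor ratios was not tested.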

How the data were processed

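Ensheathing cells of rat olfactory mucosa (Cy5) and bulb (Cy3) were compared on 4 arrays of 45018 features, 1 slide and 1 scan time. The authors extracted the scans with Agilent Feature Extraction, version 10.5.1.1 per the file headers and 9.1 in the submitters' processing notes. Spots and their surroundings were deposited as linear intensity, not normalized. The software then subtracted background, balanced the dyes and wrote the deposited log10 ratio of Cy5 over Cy3, per the file headers. The value table holds the same log10 ratios, and 0 of its columns lack a sample. RNA was amplified by PCR, per the labels' protocols, which can change transcript ratios.

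Mean signals were corrected with normexp (offset 50) and loess within each array in limma 3.58.1 (R 4.3.3). Control and outlier spots had weight 0. The filter kept probes that, in either channel, were well above background on 3 or more arrays (a share of 0.5 or more of a probe's spots). The mean log2 ratio was tested against 0 with eBayes, with Benjamini-Hochberg adjustment at 0.05. The fit was checked on simulated ratios. Tables and figures were made with Python 3.11.15, pandas 2.3.3, numpy 2.4.6 and matplotlib 3.10.9. RefSeq names are of the GRCr8 assembly, and coordinates are of rn4, per the file headers.

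The members and gene lists were chosen with earlier results of these data known. Named were up to 8 called members per direction with 1 sign on all arrays, up to 5 per direction detected on all arrays of 1 channel and at most 1 of the other, up to 4 genes with more than 1 probe, fixed sensory neuron and glia genes (1 of them is not reported here), and up to 2 called genes per other list. P-values measure the spread between these 4 biological replicates, and their number limits the precision. Alternatives were other background corrections, normalizations, filters, variance models, detection limits from negative controls, unpaired channels and each replicate left out.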

Additional observations from a re-analysis of the deposited data

Results flagged for a closer look

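In 6 of 60 sets of 4 array values, 1 array stood far from the others, by the gap to its nearest neighbour as a share of the whole range. Chance flags about 1 in 20 such sets. Among odorant receptors, Olr1353 had a share of 0.866, with array 3 at a log2 ratio of 1.25 and the others between 0.85 and 0.90. For Olr496 it was 0.845, with array 4 at 2.02 and the others between 0.50 and 0.74. At the detected probe of Olr367 it was 0.952, with array 4 at 0.68 and the others between -0.16 and -0.12. Among other genes, Rtp1 had 0.884, with array 2 at -0.12 against 0.34 to 0.40. Sox10 had 0.986, with array 3 at -1.04 against -2.15 to -2.14. Thy1, a surface protein of fibroblasts and neurons, had 0.889, with array 4 at 2.83 against 4.14 to 4.31.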

How the results depend on the processing

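The count of 13 higher odorant receptor probes lay between 11 and 16 with no background subtraction, the deposited ratio, an offset of 16, median centring, the GC trend removed, no filter, the strict filter and the fit per gene name. The probes called were not always the same. Of 14 called by the deposited ratio, 8 were among the 13, and of 16 with median centring, 12 were. The count was 6 with a trended and robust variance, and 2 to 4 with each replicate left out. Without the replicate block, that is with the pairing of the channels ignored, 38 were higher and 2, Olr241 and Olr1358, were lower. The share of all probes called higher also fell with that variance and with each replicate left out, and rose without the replicate block. By the deposited ratio it moved the other way, with 14 members higher and a share over all probes of 2.23% against 3.13%. With the GC trend removed, 12 members were higher and the share over all probes was 3.33%. The cause was not tested. The count of lower sensory neuron genes was 0 to 1 with each replicate left out. Above the 95th percentile of the negative control spots, 80.8% of members were detected in mucosa and 77.0% in bulb cells. The median log2 ratio over all members was 0.32 by the deposited ratio and -0.17 with median centring, which has no correction for intensity. Over tested members alone it was 0.13 with median centring. Over all named probes, 560 of 669 alternative values kept direction and call status, 10 changed sign without a call in either fit, 96 lost the call and 3 gained it, namely Olr496 and Olr1279 by the deposited ratio and Lhx2 with median centring. Named probes that were not called in the main fit cannot lose a call, so 560 of 669 does not measure how stable the calls are. Signal over background limits what can be tested, since 424 members did not pass the filter.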

Other observations

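Other chemosensory receptors, of pheromones, trace amines and taste, were also detected in part. Of their 36 probes, 56.9% ± 8.33 (SD, n = 4) were well above background in mucosa and 53.5% ± 3.5 in bulb cells. Of 19 that passed the filter, 0 were called in limma, with 4 higher and 0 lower at an unadjusted p under 0.05, and their median log2 ratio was 0.26. Whether they differ from the odorant receptors was not tested.

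Olr226 (Or6a2), the I7 receptor known for its response to octanal, was singled out for what is known of it, after its values were seen. Its log2 ratios were -0.17, -0.83, -0.24 and 0.50, a mean of -0.18 ± 0.54 (adjusted p = 0.711, limma), and it was detected on all arrays in both channels. On chromosome 9, where 8 members lie and 7 passed the filter, 2 were called, Olr1343 and Olr1353, which is a count chosen after the values were seen.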
